A study of Mus musculus with 8 samples.

Results

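Endothelial cells line blood and lymph vessels, and a set of 34 genes that they transcribe was examined in group 2 innate lymphoid cells (ILC2s) sorted from fat. The genes were taken by name from a fixed list of endothelial junction proteins, receptors, caveolar and diaphragm proteins, small-GTPase effectors and transcription factors, and not by a threshold on a measured value. All 34 were among the 39527 genes of the deposited table, and none of them held a value below 0. The cells were taken from visceral adipose tissue (VAT), here the epididymal depot, and the mice were male, wild-type C57BL/6 and 14 weeks old. A normal diet was fed for 4 of the libraries, called N1 to N4 here, and a high-fat diet for the other 4, called H1 to H4. The mice were put on their diet at 6 weeks of age and kept on it for 8 weeks. The comparison asked which endothelial transcripts differed in level between the diets. The labels do not say whether a library came from 1 animal or a pool, so a p-value here reflects only how far the libraries of a diet differ among themselves, and that spread may be technical.

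A blood vessel is sealed by endothelial junctions, in which VE-cadherin and claudin 5 join neighbouring cells. Vascular endothelial growth factor (VEGF) acts through its own receptor tyrosine kinases, and the angiopoietins act through the Tie receptors. Transcription factors of the SOX F and ETS families maintain the endothelial program, and VEGF and Notch signals set arterial against venous identity. Fat has a dense capillary bed through which lipids pass from the blood to adipocytes. ILC2s are lymphocytes that lie close to blood vessels, and they share a few of the 34 genes with endothelium: Pecam1, Icam2 and Fli1 are also transcribed by many leukocytes.

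Most of the endothelial transcripts were scarce in the normal-diet libraries and higher in the high-fat libraries, with H2 the least raised for most of them. The mean level was higher on the high-fat diet for 32 of 34 members and lower for Icam2 and Rasip1. In 14 members all 4 high-fat libraries lay above all 4 normal-diet libraries, and in 1 member, Icam2, all lay below. Over the 24107 genes with a value above 0, the corresponding shares were 3.81% above and 3.38% below. In 10274 of those genes, which had a mean of 0.1 to 2 FPKM (fragments per kilobase, scaled to library size), 4.32% lay above, against 11 of the 21 members in that range. The diets overlapped in 19 members. Without H2, 23 members lay above all normal-diet libraries, against 6.77% of the 24107 genes, and the mean was again higher for 32.

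A gene entered the test when it reached 1 FPKM in at least 4 of the 8 libraries and held no value below 0. This left 13 members of 34 tested among 11483 genes, and 21 fell under the filter. Of the 13, 4 rose on the high-fat diet, 0 fell and 9 did not pass (limma on log2(FPKM + 1), adjusted p under 0.05, over all genes tested). Among all tested genes 2.86% were called in either direction and 0.975% were called higher. The members that rose were Esam, Ptprb, Tm4sf1 and Vwf. Tm4sf1 and Ptprb reached 1 FPKM in the 4 high-fat libraries only, so they entered the test through the group in which they were high. The median log2 difference of the tested members, with Tm4sf1 (2.01) and Ptprb (1.39) among them, was 0.89, against -0.02 over all tested genes. Of the 13 differences 12 lay above 0, against 47.9% of all. When limma was run with no filter, all 34 members entered, and Esam, Ptprb and Tm4sf1 were called higher, against 0.17% of the 24107 genes. The median difference over the 34 members was then 0.75, against 0.05 over the 24107 genes. Without H2, 5 of the 13 tested members were called higher, against 2.22% of all tested genes: Vwf was lost and Cav1 and Pecam1 were gained. In bulk RNA, more cells of a type and more RNA per cell cannot be told apart, and neither can fewer cells and less RNA per cell.

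**Figure D1:**
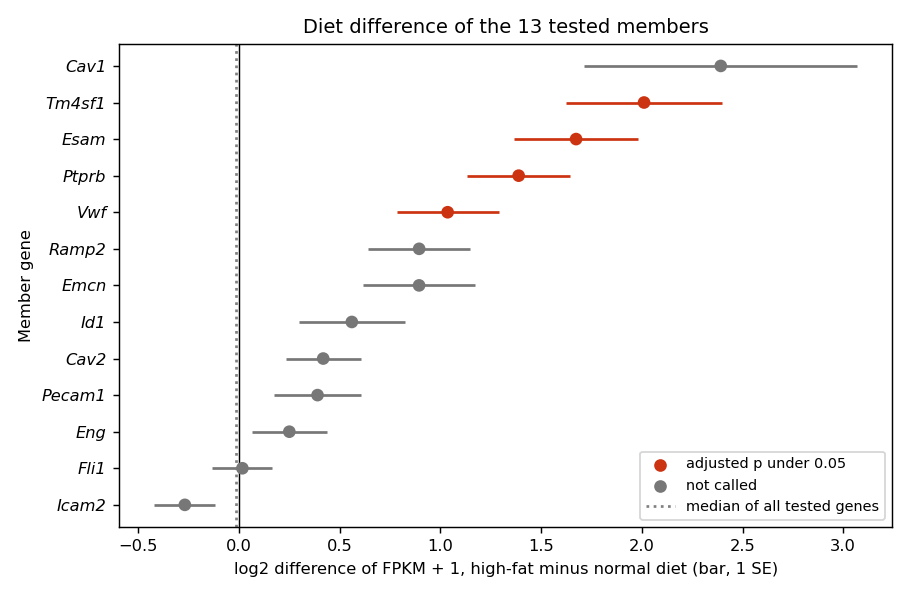
Diet difference of the 13 tested members on the log2(FPKM + 1) scale, high-fat minus normal diet, with bars of 1 SE. Red points are the 4 members with an adjusted p under 0.05, grey points the other 9, and the dotted line is the median of all tested genes at -0.02. Cav1 has the greatest difference, 2.39, and the widest bar.

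Of the 34 members, 20 had an entry in the RefSeq promoter table (GRCm38.p6, the mm10 assembly), with 27 start sites. The 250 bases before each start were searched on both strands for ETS letters (CAGGAAG or CCGGAAG), SOX letters (ACAAT), GATA letters (AGATAA) and KLF letters (CACCC), and no family's letters hold another's. ETS letters were in 25.9% of the 27 member windows and 17.0% of all 32851 windows, SOX letters in 18.5% and 27.7%, GATA letters in 3.70% and 9.99%, and KLF letters in 59.3% and 52.0%. A match is a description of the letters only. The windows of 4 members that were higher in every or nearly every high-fat library are shown 5′ to 3′ in the direction of transcription, with matches in capitals: Adgrf5 (chr17:43360181-43360430, plus strand) holds an ETS match, Tek (chr4:94739039-94739288, plus strand) SOX and KLF matches, Cldn5 (chr16:18776597-18776846, plus strand) KLF matches, and Tm4sf1 (chr3:57301989-57302238, minus strand) no match.
Adgrf5: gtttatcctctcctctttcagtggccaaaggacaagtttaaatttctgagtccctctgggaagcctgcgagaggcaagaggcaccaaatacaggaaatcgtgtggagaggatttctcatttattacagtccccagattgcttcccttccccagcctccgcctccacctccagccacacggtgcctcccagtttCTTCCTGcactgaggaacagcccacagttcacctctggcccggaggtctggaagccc
Tek: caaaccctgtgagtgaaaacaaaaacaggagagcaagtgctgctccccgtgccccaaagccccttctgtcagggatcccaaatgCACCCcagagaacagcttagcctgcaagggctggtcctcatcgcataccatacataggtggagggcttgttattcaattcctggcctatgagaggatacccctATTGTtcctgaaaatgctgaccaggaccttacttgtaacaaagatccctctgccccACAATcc
Cldn5: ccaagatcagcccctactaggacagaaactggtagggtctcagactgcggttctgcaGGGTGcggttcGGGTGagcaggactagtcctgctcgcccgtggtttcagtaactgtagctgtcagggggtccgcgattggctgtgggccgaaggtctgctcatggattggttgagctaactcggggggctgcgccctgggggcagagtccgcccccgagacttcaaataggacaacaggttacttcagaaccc
Tm4sf1: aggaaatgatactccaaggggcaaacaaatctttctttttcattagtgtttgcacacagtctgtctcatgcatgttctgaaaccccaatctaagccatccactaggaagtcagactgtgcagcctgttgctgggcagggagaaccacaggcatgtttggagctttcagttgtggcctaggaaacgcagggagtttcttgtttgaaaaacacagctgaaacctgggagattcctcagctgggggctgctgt

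The libraries held 9005363 recovered reads in H2 and 12272413 to 15752815 in the other 7. H2 also stood apart among genes of low level. Of the 10274 genes with a mean of 0.1 to 2 FPKM, 51.6% had their highest value in H2, and 4.94% to 8.96% had it in each other library. Their median was 0.781 FPKM in H2, and it ran from 0.165 (N2) to 0.433 (H3) in the others. Their mean was higher on the high-fat diet in 73.3% of those genes, and in 20 of the 21 members of that range. Without H2 these were 52.3% of the genes and again 20 of the 21 members. The 10 listed ILC2 genes summed to 5731 to 7026 FPKM in the normal-diet libraries and to 4346 to 5032 in the high-fat libraries, so the endothelial sums given below are small beside them. Of these 10 genes Il5, Il2ra and Gata3 fell, by 2.06, 0.72 and 0.59 (limma adjusted p of 7.63e-05, 0.0152 and 0.0449). The call of Gata3 was lost when any library except N3 was left out, and that of Il2ra without H3 or N1 (limma adjusted p of at most 0.115).

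Junction and adhesion genes formed the first group of 6 members, of which 4 were tested and 1 rose. Esam (ENSMUSG00000001946, mm10 chr9:37528078-37538319), an adhesion molecule of endothelial tight junctions that platelets also carry, stood at 0.867, 0.266, 1.25 and 0.670 FPKM in N1 to N4. In H1 to H4 it stood at 4.30, 1.86, 5.88 and 7.82 FPKM. The lowest high-fat library, H2, was above the highest normal-diet library, N3. The means were 0.763 ± 0.409 (SD, n = 4) and 4.96 ± 2.52 FPKM (SD, n = 4), a rise of 1.67 on the log2(FPKM + 1) scale (SE 0.309, limma adjusted p = 0.0111). Esam was called in all 18 other settings tried, with an adjusted p of at most 0.0486.

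Cdh5 (ENSMUSG00000031871), which encodes VE-cadherin, the defining adhesion protein of endothelium, was scarce in every library. It held 3, 7, 15 and 1 reads in N1 to N4, or 0.0690, 0.153, 0.315 and 0.0241 FPKM. The high-fat libraries held 19, 15, 16 and 19 reads, or 0.334, 0.416, 0.333 and 0.356 FPKM. The diets did not overlap, but N3 lay just under the lowest high-fat library. Cldn5 (ENSMUSG00000041378), which encodes the claudin of endothelial tight junctions, stood at 0.615, 0.390, 0 and 0.211 FPKM in N1 to N4 and at 2.10, 0.545, 2.34 and 8.35 in H1 to H4. H2 fell inside the normal-diet range, and H4 was 3.76 times the mean of H1 and H3.

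Emcn, a sialomucin of capillary and venous endothelium, ranged from 0.765 to 2.20 FPKM on the normal diet. In H1 to H4 it stood at 4.96, 3.24, 3.66 and 1.48 FPKM, so here H4 was the lowest. Its difference was 0.89 (SE 0.276, limma adjusted p = 0.0974). Pecam1 (CD31) was far more abundant, at 16.1, 13.7, 11.3 and 12.8 FPKM in N1 to N4 and 25.1, 10.6, 17.8 and 21.1 in H1 to H4. H2 was below all normal-diet libraries, and the difference of 0.39 did not pass (limma adjusted p = 0.369). Without H2, the lowest high-fat library of Pecam1, the difference was 0.62 and passed (limma adjusted p = 0.0472), but leaving out the lowest library raises it by construction. Icam2 went the other way, at 54.7, 61.0, 56.6 and 81.5 FPKM in N1 to N4 and 53.3, 52.6, 49.1 and 52.6 in H1 to H4. Its difference of -0.27 did not pass (limma adjusted p = 0.376). Pecam1, Icam2 and Fli1, the 3 members listed as also carried by leukocytes, summed to 118 to 147 FPKM on the normal diet. They summed to 107 to 141 on the high-fat diet, which overlaps.

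**Figure D2:**
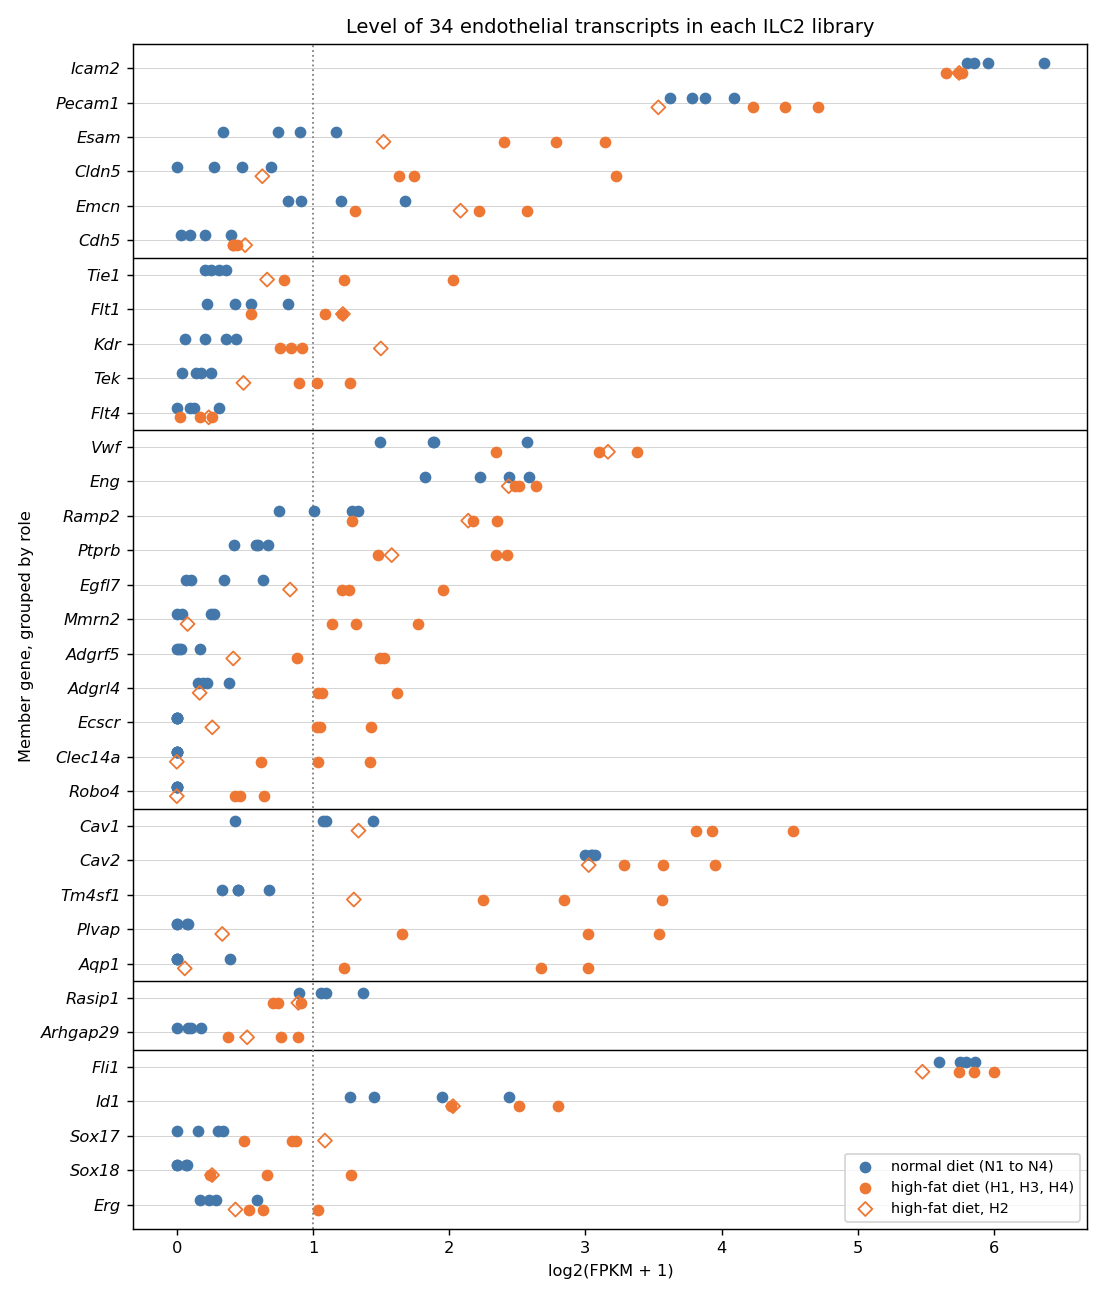
Level of each of the 34 members in each library as log2(FPKM + 1). Blue points are the normal-diet libraries, filled orange points H1, H3 and H4, open diamonds H2, black lines part the roles, and the dotted line marks 1 FPKM. For 23 members H1, H3 and H4 all lie above every normal-diet library, and for 9 of these the H2 diamond lies within or below the normal-diet range.

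The receptors for VEGF and the angiopoietins were all under the filter, and 3 of the 5 did not overlap between the diets. Kdr (VEGFR2), the main signalling receptor for VEGF-A on blood endothelium, stood at 0.284, 0.0451, 0.351 and 0.155 FPKM in N1 to N4. It stood at 0.694, 1.82, 0.894 and 0.792 FPKM in H1 to H4, and H2, with 91 reads, was the highest. Every high-fat library was above every normal-diet one. Flt1 (VEGFR1), which binds VEGF-A with high affinity and weak signalling, stood at 0.458, 0.164, 0.757 and 0.345 FPKM in N1 to N4 and at 0.459, 1.33, 1.32 and 1.13 in H1 to H4. H1 lay among the normal-diet libraries. Flt4 (VEGFR3), the VEGF-C receptor of lymphatic endothelium, held at most 13 reads in any library. Its diets overlapped, with 0 to 0.241 FPKM on the normal and 0.0178 to 0.195 FPKM on the high-fat diet.

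The Tie receptors were low in all normal-diet libraries and graded among the high-fat libraries. Tek (Tie2), the angiopoietin receptor, stood at 0.0253, 0.101, 0.128 and 0.190 FPKM in N1 to N4 and at 1.05, 0.404, 0.863 and 1.42 in H1 to H4. Tie1, its partner receptor, stood at 0.239, 0.152, 0.287 and 0.192 FPKM in N1 to N4 and at 0.722, 0.583, 1.34 and 3.07 in H1 to H4. For both genes H2 was the lowest high-fat library and H4 the highest. Ptprb (ENSMUSG00000020154, mm10 chr10:116275523-116389535), the phosphatase that acts on Tie2 and VE-cadherin, stood at 0.511, 0.338, 0.493 and 0.591 FPKM in N1 to N4. In H1 to H4 it stood at 1.79, 1.98, 4.07 and 4.36 FPKM, so H1 and H2 formed a lower pair and H3 and H4 a higher one. The rise was 1.39 (SE 0.255, limma adjusted p = 0.0104). It missed the threshold without H3 or without H4 (limma adjusted p of at most 0.0512).

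Of the genes that act with these receptors, a list of 11 ligands and co-receptors had 3 tested members, of which 1 rose and 1 fell. Nrp1, a VEGF co-receptor that lymphocytes also express, had means of 11.0 ± 3.05 and 29.0 ± 8.56 FPKM (SD, n = 4 each), a rise of 1.31 (limma adjusted p = 0.00578). Vegfa, the ligand, fell by 1.18, from 33.2 ± 8.25 to 14.0 ± 3.28 FPKM (SD, n = 4 each, limma adjusted p = 0.00625). The summed level of the list overlapped between the diets, at 51.0 to 63.5 FPKM and 48.6 to 60.5 FPKM.

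Secreted proteins and other receptors followed, and the secreted clotting protein Vwf (ENSMUSG00000001930, mm10 chr6:125546774-125686679) was the most abundant of them on the high-fat diet. Its level was 2.70, 1.81, 4.93 and 2.69 FPKM in N1 to N4 and 4.07, 7.97, 9.38 and 7.55 in H1 to H4. H1 was below N3, so the diets overlapped. The means were 3.03 ± 1.33 and 7.24 ± 2.26 FPKM (SD, n = 4 each), a rise of 1.04 (SE 0.254, limma adjusted p = 0.0428). The call held in 7 of 18 other settings, and among single libraries it was lost without H2, H3, H4, N1, N2 or N4, with an adjusted p of at most 0.131. Platelets also hold Vwf. The platelet list summed to 176 to 244 FPKM on the normal and 152 to 183 on the high-fat diet, most of it Itgb3, which was at 191 ± 32.9 and 156 ± 16.3 FPKM (SD, n = 4 each). Itga2b was at 16.8 ± 4.69 and 10.8 ± 4.45 FPKM (SD, n = 4 each). Of the 4 tested genes 0 were called, with a median difference of -0.56, and Pf4 and Ppbp, at most 2.07 and 0.259 FPKM in any library, were under the filter.

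Eng, a co-receptor for BMP9 and TGF-beta, differed little, with 2.53 to 5.01 FPKM on the normal and 4.41 to 5.23 FPKM on the high-fat diet (difference 0.25, limma adjusted p = 0.521). Ramp2, the partner of Calcrl in the adrenomedullin receptor, stood at 1.44, 0.683, 1.52 and 1.01 FPKM in N1 to N4 and 1.44, 3.41, 4.10 and 3.52 in H1 to H4. H1 was at the normal level, and the difference of 0.90 did not pass (SE 0.252, limma adjusted p = 0.0699). It passed without H1 (1.13, limma adjusted p = 0.0257), but leaving out the lowest high-fat library raises the difference by construction.

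Egfl7, a matrix protein secreted by endothelium, stood at 0.271, 0.0767, 0.552 and 0.0494 FPKM in N1 to N4 and 1.32, 0.779, 1.40 and 2.88 in H1 to H4. The adhesion G protein-coupled receptor Adgrf5 held 26, 0, 4 and 2 reads in N1 to N4 and 194, 54, 328 and 430 in H1 to H4. Neither gene overlapped between the diets. Its relative Adgrl4 (ELTD1) ranged from 0.111 to 0.306 FPKM on the normal diet and stood at 1.05, 0.123, 1.10 and 2.06 in H1 to H4. Mmrn2, a matrix glycoprotein that binds Clec14a, stood at 1.20, 0.0562, 1.48 and 2.41 FPKM in H1 to H4, against 0 to 0.206 on the normal diet. In both of these H2 lay within the normal range.

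For 3 endothelial surface proteins, no read was recovered in any normal-diet library. Ecscr, a regulator of endothelial migration, held 22, 2, 15 and 17 reads in H1 to H4. Robo4, a guidance receptor that steadies the vessel wall, held 27, 0, 17 and 17 reads. Clec14a, a C-type lectin of endothelium, held 9, 0, 19 and 32 reads. In H2 a count of 0 allows up to 0.0802 FPKM of Robo4 and 0.220 FPKM of Clec14a, from 3 reads and for counting error only. Over the pooled normal-diet group, 3 reads would be 0.0601 FPKM of Ecscr, 0.0166 of Robo4 and 0.0482 of Clec14a. Against these floors the pooled high-fat levels were at least 17.5-fold higher for Ecscr, at least 20.4-fold for Robo4 and at least 18.4-fold for Clec14a. These folds allow for counting error in the normal-diet group only. They do not cover the spread between libraries, and H2 held 0 reads of Robo4 and Clec14a.

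Caveolae are flask-shaped pits of the endothelial membrane, and Cav1 (ENSMUSG00000007655, mm10 chr6:17306335-17341452) encodes their main coat protein. It stood at 1.13, 1.71, 0.342 and 1.10 FPKM in N1 to N4 and at 13.1, 1.52, 14.2 and 21.9 in H1 to H4. H1, H3 and H4 were far above all normal-diet libraries, and H2 was inside their range. The difference of 2.39 did not pass with all libraries (SE 0.678, limma adjusted p = 0.122). Without H2, the lowest high-fat library of Cav1, the difference was 3.08 and passed (limma adjusted p = 3.35e-06). Leaving out the lowest high-fat library raises the difference by construction. Adipocytes, fibroblasts and smooth muscle cells also carry Cav1. Cav2, its partner, held 6.97 to 7.40 FPKM on the normal diet and 10.9, 7.13, 8.71 and 14.5 in H1 to H4 (difference 0.42, limma adjusted p = 0.247).

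Tm4sf1 (ENSMUSG00000027800, mm10 chr3:57285611-57301988), a tetraspan membrane protein of endothelium and other adherent cells, stood at 0.368, 0.365, 0.256 and 0.601 FPKM in N1 to N4. In H1 to H4 it stood at 3.75, 1.46, 6.19 and 10.8 FPKM, all above the normal-diet libraries, with H2 the nearest. The means were 0.398 ± 0.145 and 5.552 ± 4.002 FPKM (SD, n = 4 each), a rise of 2.01 (SE 0.388, limma adjusted p = 0.0191). The call was lost without H3, N1, N2 or N3 (limma adjusted p of at most 0.0745).

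Plvap, which forms the diaphragms of caveolae and fenestrae, and Aqp1, a water channel, shared another order. Plvap held 2, 0, 0 and 2 reads in N1 to N4 and 346, 8, 436 and 98 in H1 to H4, where its level was 7.12, 0.260, 10.7 and 2.15 FPKM. Aqp1, which red cells also carry, held 9, 0, 0 and 0 reads in N1 to N4 and 205, 1, 228 and 48 in H1 to H4, or 5.37, 0.0413, 7.09 and 1.34 FPKM. Both were highest in H3 and then H1, with H4 well under these and H2 the lowest high-fat library. Aqp1 in H2 lay inside the normal-diet range, while Plvap in H2 lay above all normal-diet libraries, the highest of which was at 0.0565 FPKM. Their correlation over the 8 libraries after centring on each diet's mean was 0.99.

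Of the 2 small-GTPase effectors, Arhgap29, a GTPase-activating protein, held 0 to 0.134 FPKM on the normal diet and 0.294, 0.430, 0.699 and 0.855 in H1 to H4, with no overlap. Rasip1, which binds it downstream of Rap1, stood at 1.08, 0.867, 1.14 and 1.58 FPKM in N1 to N4 and 0.629, 0.856, 0.669 and 0.880 in H1 to H4. Its mean was lower on the high-fat diet, and H4 lay above N2.

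Among the 5 transcriptional regulators, 2 were tested and 0 passed. Sox17, a SOX F factor of arterial endothelium, held 8, 0, 18 and 18 reads in N1 to N4 and 38, 66, 62 and 72 in H1 to H4, and per length and depth H2 was the highest at 1.12 FPKM. Sox18, another SOX F factor, held 1, 0, 0 and 1 reads in N1 to N4 and 4, 3, 10 and 31 in H1 to H4. Neither overlapped between the diets, and Sox18 was highest in H4. Erg, the main ETS factor of endothelium, overlapped, at 0.125 to 0.503 FPKM on the normal and 0.348 to 1.05 FPKM on the high-fat diet. Fli1, an ETS factor of endothelium and blood cells, stood at 52.9 ± 4.06 and 53.9 ± 8.19 FPKM (SD, n = 4 each; difference 0.02, limma adjusted p = 0.970). Id1, a target of BMP signalling that inhibits helix-loop-helix factors, held 1.41 to 4.42 FPKM on the normal and 3.03 to 5.96 on the high-fat diet (difference 0.56, limma adjusted p = 0.277). Of the 17 genes of the BMP and TGF-beta list, 13 were tested and only Id3 passed, with a rise of 1.94 (limma adjusted p = 0.00431).

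**Figure D3:**
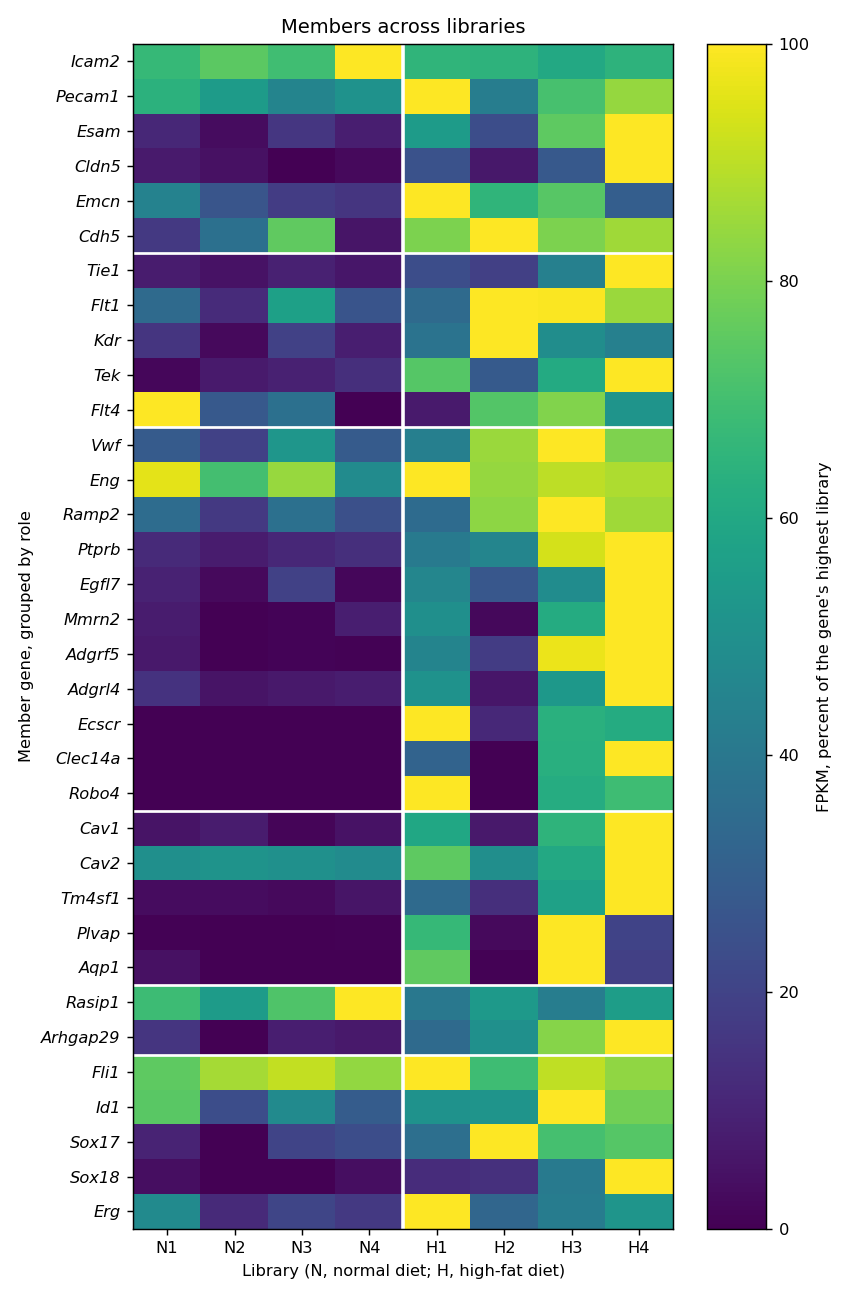
Level of each member in each library as a percent of that gene's highest library, grouped by role (white lines), with the normal-diet libraries left of the vertical line. H2 is dark for Cav1, Plvap, Aqp1, Mmrn2, Clec14a and Robo4 and at the maximum for Kdr, Sox17, Flt1 and Cdh5.

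The high-fat libraries did not raise the members in 1 common proportion. H2 was the lowest of the 4 for 20 members and the highest for 4, while H4 was the highest for 16. Relative to the mean of H1, H3 and H4, the H2 level was under 25% for 11 members, among them Aqp1 (0.899%), Mmrn2 (3.31%), Plvap (3.91%), Adgrl4 (8.78%), Cav1 (9.26%) and Cldn5 (12.8%). It was at or above 100% for 9 members, with Kdr at 230%, Sox17 at 166%, Flt4 at 156%, Flt1 at 137% and Cdh5 at 122%. The other 14 lay between. These limits were set after the values were seen. Some percentages rest on few reads: in H1 to H4 Cdh5 held 19, 15, 16 and 19 and Flt4 held 1, 10, 12 and 9. In Flt4, Icam2 and Rasip1, which are among the 9, no high-fat library lay above all normal-diet libraries. The part in these H2 values of the higher level of scarce transcripts in that library, given above, was not tested.

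The other 3 high-fat libraries also differed in which endothelial genes they held. Over H1 and H3, Plvap and Aqp1 averaged 8.89 and 6.23 FPKM, and H4 held 0.242 and 0.215 of that. Emcn in H4 was 0.343 of its mean in H1 and H3. Cldn5, Sox18, Tie1, Tm4sf1, Egfl7 and Clec14a went the other way, with H4 at 3.76, 3.71, 2.97, 2.18, 2.12 and 2.11 times the mean of H1 and H3.

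Genes of the lists for vessel types were highest in different high-fat libraries, and those named here were chosen after their values were seen, apart from Hey1, Efnb2 and Aqp7. Of the 10 arterial genes 7 were highest in H4 and 3 in H2. Of the 10 capillary genes 2 were highest in H1, 3 in H2, 3 in H3 and 2 in H4, and of the 8 venous genes 3, 1, 3 and 1. Lrg1, listed as venous, stood at 8.72, 0.0819, 8.82 and 1.12 FPKM in H1 to H4 and at most at 0.180 on the normal diet. Gpihbp1, which anchors lipoprotein lipase to capillary endothelium, stood at 5.29, 0.130, 4.31 and 0.980 FPKM in H1 to H4. Car4 and Cxcl12, also listed as capillary, were highest in H2, at 4.70 and 4.91 FPKM. Aqp7, a glycerol channel of the capillary list, rose by 1.05 (limma adjusted p = 0.0277), a call lost when any library except H2 was left out. Aqp7 reached 1 FPKM in the 4 high-fat libraries only, so it entered the test through the group in which it was high. The connexins of arterial endothelium were highest in H4: Gja4 stood at 0.901, 0, 0.931 and 7.56 FPKM and Gja5 at 0.499, 0.356, 2.27 and 6.04 in H1 to H4. Gja4 was at 0 in all 4 normal-diet libraries. Summed over the 10 listed arterial genes, Sox17 among them, H1 to H4 held 10.9, 12.8, 21.7 and 43.6 FPKM, against 6.55 to 12.4 on the normal diet. Fbln5, an elastic fibre protein that stromal cells also make, was 19.5 FPKM of the H4 sum, and Gja4 and Gja5 were 7.56 and 6.04. Hey1, Efnb2 and Sox17 were the 3 highest in H2. Hey1 and Efnb2 were the 2 tested, and 0 passed.

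**Figure D4:**
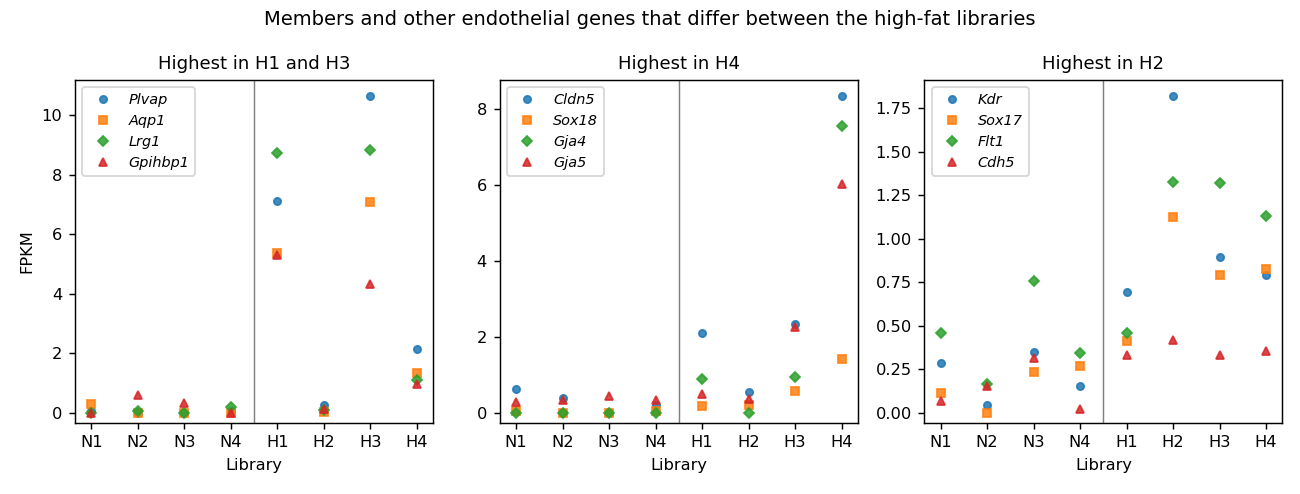
FPKM of 12 endothelial genes in each library (N, normal diet; H, high-fat diet; linear axes that differ between panels). The left panel shows genes highest in H1 and H3, the middle panel genes highest in H4 and the right panel genes highest in H2, such as Kdr at 1.82 FPKM.

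Markers of other vessel-wall cells moved with some of these libraries. The 10 listed pericyte and smooth muscle genes summed to 5.27 to 7.59 FPKM on the normal diet and to 14.6, 7.16, 18.4 and 61.8 in H1 to H4. Acta2, smooth muscle actin, stood at 4.84, 0.809, 4.64 and 32.7 FPKM in H1 to H4 and at most at 0.319 on the normal diet. Tagln was at 17.1 FPKM in H4. The 11 stromal genes summed to 12.9 to 26.1 FPKM on the normal diet and to 45.5, 22.6, 29.8 and 108 in H1 to H4. Gsn made up 5.92 to 15.4 FPKM of that sum on the normal diet and 21.9, 6.61, 18.2 and 55.8 in H1 to H4. It was not called (difference 0.85, limma adjusted p = 0.524). The 5 tested stromal genes had a median difference of 0.85. Of these 5, Mfap5 rose, a call lost without H3, H4, N1, N2 or N4 (limma adjusted p of at most 0.0967). H4 had the highest sum of both lists, as it had of the arterial list. By gene, 9 of the 11 stromal genes and 4 of the 10 pericyte and smooth muscle genes were highest in H4. These 4 were Acta2, Myh11, Tagln and Des. Of the others, Rgs5 was highest in H3, Pdgfrb and Kcnj8 in H1, and Cspg4, Abcc9 and Notch3 in H2. Tagln, the 1 tested gene of the pericyte and smooth muscle list, did not pass (difference 0.47, limma adjusted p = 0.761). The part of either list in the members' levels was not tested.

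Adipocyte genes summed to 2.95 to 4.57 FPKM on the normal and to 3.64, 8.64, 5.47 and 3.17 in H1 to H4, and Adipoq was at 0 in H2, H4, N2, N3 and N4. Plin1 was higher on the high-fat diet without overlap, at 0.0744, 0.881, 0.177 and 0.0794 FPKM in H1 to H4. It was at most at 0.0444 FPKM on the normal diet. The 2 tested adipocyte genes, Cidec and Lpl, did not pass (differences -0.02 and 0.33). Macrophage genes summed to 8.27 to 9.79 FPKM on the normal and to 12.1 to 13.0 on the high-fat diet, with 0 of 3 tested genes called. The differences of Cd14 and Cd68 were -0.01 and 0.07, and that of Lyz2 was 0.84 (limma adjusted p = 0.182). C1qb was at 0 in all normal-diet libraries and at 0.429 to 1.63 FPKM in the high-fat libraries, and C1qc did not overlap either, at most 0.243 FPKM against at least 0.436. Adgre1 (F4/80) was lower without overlap, at 0.984 to 1.80 against 0.0952 to 0.797 FPKM. Lymphatic genes summed to at most 2.99 and 4.32 FPKM, and none was tested.

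The sums of the T cell, mast cell, erythroid, B cell, neutrophil and mesothelial lists overlapped between the diets, and 0 of their tested genes were called. T cell genes summed to 231, 127, 210 and 317 FPKM in H1 to H4 and to 114 to 216 on the normal diet. Cd3g and Cd247 were the most abundant tested (differences 0.25 and 0.44). The median difference of the 7 tested T cell genes was 0.87, near the 0.89 of the tested members. It was -0.42 for the mast cell list and -1.56 for the erythroid list. Mast cell genes, led by Tpsb2 and Cma1 (differences -0.62 and -0.42), summed to 7835, 1717, 4237 and 7220 FPKM in H1 to H4 and to 3747 to 7989 on the normal diet. H2 was the lowest high-fat library for both sums, as it was for 20 members. Erythroid genes, led by Hba-a1 and Hbb-bs, summed to 377, 60.04, 123 and 46.5 FPKM in H1 to H4 and to 132 to 4485 on the normal diet, where N4 was the highest and N4 held no read of Aqp1. B cell genes (Cd79b, Cd79a) summed to 4.14 to 7.79 FPKM, neutrophil genes (S100a9) to 0.920 to 3.63 and mesothelial genes (Lrrn4) to 4.15 to 7.11 over the 8 libraries. The part of any of these lists in the members' levels was not tested.

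The 31 members other than Pecam1, Icam2 and Fli1 summed to 30.9, 21.2, 28.5 and 22.4 FPKM in N1 to N4 and to 80.1, 46.1, 103 and 117 in H1 to H4. No high-fat library was as low as a normal-diet one. Within these sums Cav2, Eng, Vwf and Id1 had normal-diet means of 7.21, 3.91, 3.03 and 2.60 FPKM. Which cells held them was not tested. A list of 28 further endothelial genes that are no members summed to 47.3 to 51.9 FPKM on the normal diet and to 214, 64.7, 177 and 185 in H1 to H4. Of its 12 tested genes, 4 rose and 0 fell: Fabp4, a fatty acid carrier, Col4a1, a basement membrane collagen, Cdh13, T-cadherin, and Calcrl, the receptor that pairs with Ramp2. Their log2 differences were 4.29, 1.08, 0.98 and 0.94 (limma adjusted p of 0.0270, 0.0315, 0.0391 and 0.0175). Col4a1 and Cdh13 reached 1 FPKM in the 4 high-fat libraries only, so they entered the test through the group in which they were high. The calls of Fabp4, Col4a1 and Cdh13 were each lost when any library except H2 was left out, and that of Calcrl without H1, H3 or N2 (limma adjusted p of at most 0.121). Adipocytes and macrophages also carry Fabp4, which made up 104, 9.68, 62.5 and 68.9 FPKM of that sum in H1 to H4.

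Of the 4 tested genes of the venous list, Vwf and Vcam1 rose, Sele fell and Selp was not called (difference 0.45, limma adjusted p = 0.346). Vcam1, an adhesion molecule for leukocytes, rose by 1.23 (limma adjusted p = 0.00768), while Sele, E-selectin, fell by 1.52 from 15.4 ± 5.32 to 4.51 ± 0.571 FPKM (SD, n = 4 each, limma adjusted p = 0.00296). Sele stood at 14.1, 19.9, 8.48 and 19.3 FPKM in N1 to N4, where Cdh5 was at most at 0.315. Which cells held Sele was not tested. Of the 8 tested Notch and ephrin genes 0 passed. Rbpj, the DNA-binding partner of Notch, and Notch2 were the most abundant, with differences of -0.08 and 0.05.

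**Figure D5:**
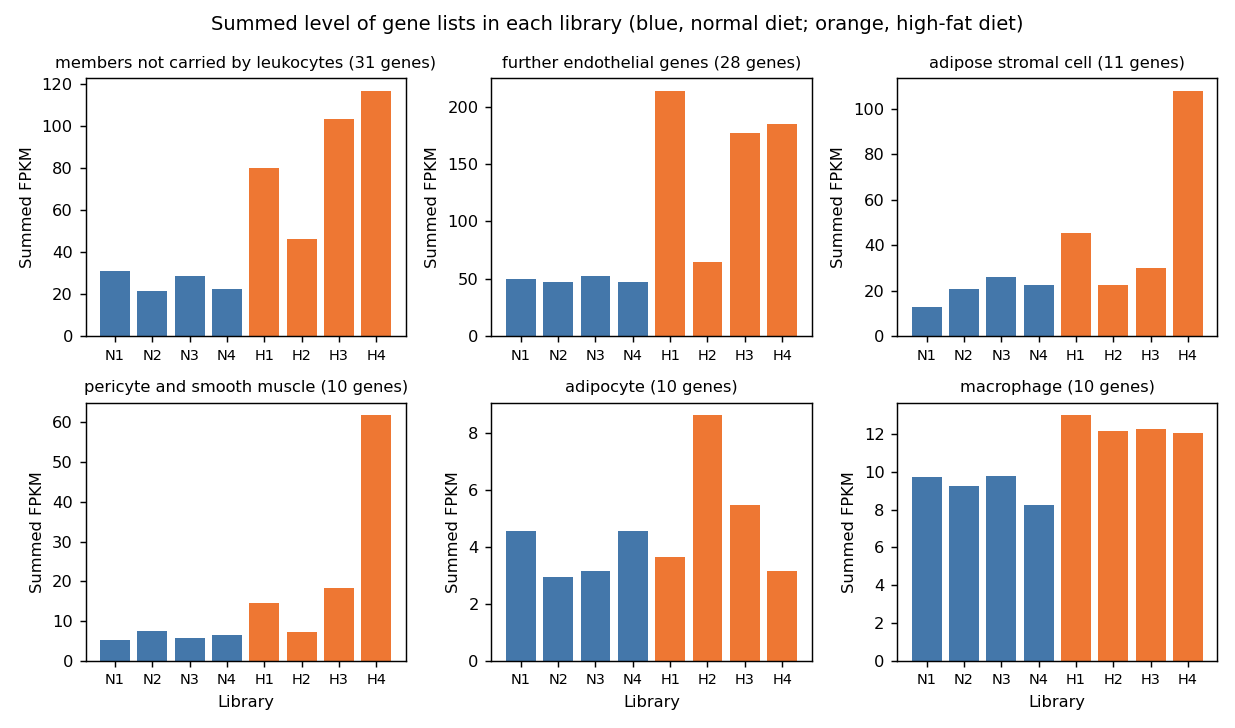
Summed FPKM of 6 gene lists in each library, with blue bars for the normal diet, orange bars for the high-fat diet, and axes from 0 that differ between panels. The panel of 31 members leaves out Pecam1, Icam2 and Fli1 only. The endothelial sums are lowest of the high-fat libraries in H2, and the pericyte and smooth muscle sum reaches 61.8 in H4.

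Variation shared by the members across the 8 libraries was measured against Esam, the first of Cdh5, Egfl7, Cldn5, Kdr and Esam to pass the filter. The correlation of the pooled values was past an adjusted p of 0.05 for 4 of 12 other tested members by an exact permutation test of Pearson's r (Tm4sf1 0.96, Ptprb 0.95, Cav1 0.91 and Cav2 0.84) and for 6 by Spearman's rank correlation. Since the diets did not overlap in Esam, such an r repeats the difference between the diets. With values centred within each diet 0 of 12 passed (permutations within the diets), the median r was 0.52, and Tm4sf1 had 0.85. With the 2 libraries farthest from the median, H3 and H4, left out, 0 of 12 passed as well. Over all 561 pairs of the 34 members the median r was 0.61 pooled and 0.24 centred, with 86.1% and 67.0% of pairs above 0. Centred values paired Tm4sf1 with Clec14a (0.99) and Vwf with Flt1 (0.97), and set Kdr against Cav1 (-0.93), which differ in whether H2 was high. The points share their libraries, and all of these r are descriptions.

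A mean standardised level was taken over the 10 tested members other than Pecam1, Icam2 and Fli1. Genes outside the list were ranked by their correlation with it over the 8 libraries. The 10 highest had r from 0.945 to 0.971: Magi1, Pmaip1, Fstl1, Col4a1, Ms4a4b, Id3, Per2, Ccdc125, Itga4 and Vcam1. In each of them the diets did not overlap, as the ranking over both diets favours. Magi1 had means of 1.76 ± 0.237 and 2.68 ± 0.221 FPKM (SD, n = 4 each), and its difference of 0.42 did not pass (limma adjusted p = 0.236). Itga4, the alpha chain of the receptor for Vcam1, had 16.8 ± 0.458 and 20.2 ± 1.92 FPKM (SD, n = 4 each), and its difference of 0.25 did not pass either (limma adjusted p = 0.364).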

How the data were processed

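The 8 libraries were made from total RNA in Trizol with the SMART-Seq HT and TruePrep kits, which do not mark strand, per the labels' protocols. HISAT2, Cufflinks and mm10 appear in the submitters' processing notes, without versions. Per the file headers the deposited unit is FPKM, but 14605 of 39527 genes hold values below 0, so the deposited column was handled as a score. The genes below 0 were left out. The value of 1 read takes 10 sizes within a library (0.863 to 1.18 of their geometric mean). Allowing for these, whole reads were recovered for 100% of 24107 genes (relative tolerance 1e-06, length at least 20), where a common divisor of all its reads makes a gene's number too small. They serve as read numbers and counting floors of 3 reads.

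limma 3.58.1 (R 4.3.3) was run on log2(FPKM + 1), pseudocount 1, with diet as the only term, eBayes trend and robust options, two-sided p-values and Benjamini-Hochberg adjustment over 11483 genes at 0.05. The fit and the read recovery were tested on simulated data. Correlations used exact permutations. Gene coordinates are from GENCODE M21. Members, lists and tests were chosen with earlier results of these data known. Named were all members, of each other list up to 4 called genes by size or else the 2 most expressed tested, and the 10 genes most like the members. Car4, Cxcl12, Lrg1, Gpihbp1, Gja4, Gja5, Fbln5, Acta2, Pf4, Ppbp, Adipoq, C1qb, C1qc and Adgre1 were named after their values were seen. So were Plin1, Lyz2, Selp, Gsn, Myh11, Des, Rgs5, Pdgfrb, Kcnj8, Cspg4, Abcc9 and Notch3. Alternatives changed the pseudocount, filter, scaling, fit or libraries.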

Additional observations from a re-analysis of the deposited data

Results flagged for a closer look

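In the high-fat group, Icam2 in H3 stood apart from the other libraries of its group. It was at 49.1 FPKM there, and the nearest library, H2, was at 52.6 FPKM. This gap was 0.830 of the group's range, just above Dixon's 95% critical value for 4 samples. It was the only library marked in the 26 groups looked at, and chance marks about 1 group in 20.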

How the results depend on the processing

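Members called lower numbered 0 in all 18 alternatives. Of 234 log2 differences of tested members, 208 kept direction and side of the threshold, 17 fell short of it, 6 passed it and 3 changed sign, all of Fli1, which was not called (-0.060 to 0.115 when 1 library was left out, below 0 without H1, H3 or N1). Genes called numbered 328 (112 higher), and 130 with no filter, 571 with the repeating factor divided out, 1380 by limma voom on recovered reads and 129 to 536 when 1 library was left out. Quantile normalization called 430, 226 of them higher. Voom called 1019 higher and shifted the median of all genes by 0.17. It called 11 of 26 members, with a median difference of 2.23, and the pseudocount 0.1 gave a median of 1.25. Members called ranged from 1 (without H3) to 5 (without H1, or without H2) when a library was left out. Members above every normal-diet library in all high-fat libraries numbered 14, and 23 without H2, a setting chosen after seeing the data. Members correlated with Esam numbered 4, 0 after centring within diet, 0 without the 2 farthest libraries, 0 without both H2 and N2, 7 at the pseudocount 0.1 and 2 to 6 without single libraries. The cause of these moves was not tested. The replicate numbers gave correlations of deviations of -0.25 to 0.08, and 0 of 8 libraries correlated best with their own number. A weak pairing could go unseen by this check, and the main fit treated the libraries as unpaired. With the replicate block 191 genes and 4 members were called. Depth limits members held by under 10 reads in a library.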
